A study of Bos taurus with 47 samples.

Results

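Bovine genes that were nearly silent until the 8-cell stage, appeared in morulae and were still present in blastocysts were followed through embryos made by somatic cell nuclear transfer (scNT), blastocyst-derived cells and fibroblasts. The genes were chosen on the medians of 5 groups of libraries. A gene had to have a median of at most 20 normalized counts in oocytes and in 2-cell and 8-cell embryos made by in vitro fertilization (IVF), a median of at least 100 in IVF morulae, and an IVF blastocyst median of at least 0.5 of the morula median. Of the 20526 genes in the table, 62 met the rule. The medians just inside and just outside the thresholds were 17.1 and 29.2 in oocytes, 19.2 and 20.1 in IVF 8-cell embryos, and 102 and 96.8 in IVF morulae, and the ratio of IVF blastocyst to morula medians was 0.569 inside and 0.415 outside. The highest IVF 2-cell median among the 62 was 10.4, and no gene missed the rule on that threshold alone. Choosing the genes again without 1 of the 20 libraries that the rule used gave between 55 and 79 genes, at least 54 of them among the 62. The oocyte, IVF 2-cell, 8-cell, morula and blastocyst values therefore describe the choice and are not tested against each other.

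The series held 47 mRNA sequencing libraries. The scNT embryos, in which an ear fibroblast grown from a bull cross was fused with an enucleated oocyte, were collected as 2-cell embryos on day 2, 8-cell embryos on day 3, morulae on day 6 and blastocysts on day 8, in pools of 20. IVF embryos, sired by semen of a Holstein bull, were collected at the same stages and days. Blastocyst-derived cells of both methods, donor-type fibroblasts and mature (MII) oocytes completed the 12 groups. Embryos of both methods were cultured with bovine cumulus cells, per the labels. Every group had 4 libraries except scNT morulae, which had 3, numbered 2, 3 and 4. The labels give both 3 and 4 as the number of pools of a stage, and nothing in them says that replicates came from different animals or cultures. The p-values therefore measure only the spread between these libraries, which may be technical. Sequencing depth ran from 4608099 to 16642362 recovered reads per library. In a subset of 13 of these genes, formed after values were seen and described below, some single libraries stood apart from their groups. They included scNT morula replicate 4, scNT blastocyst replicate 3, IVF blastocyst replicate 4, IVF 2-cell replicate 3 and fibroblast replicate 3. Oocyte replicate 4 also stood above its group, and scNT 8-cell replicate 1 stood below its group. Over all 62 genes the median of scNT morula replicate 4 was 7.68 on the log2 scale, between 7.26 and 7.93 in replicates 2 and 3. Choosing the genes without IVF 2-cell replicate 3, or without oocyte replicate 4, gave the same 62.

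In cattle the main wave of embryonic transcription begins around the 8-cell stage. At the morula stage the cells press together and polarize, and in the blastocyst the outer cells form the trophectoderm, an epithelium that pumps fluid into the cavity, around an inner cell mass. Genes switched on between those stages are known to serve adhesion, transport and the first lineage decision. The deposited table names genes only by Ensembl identifiers, and 0 of the 20526 matched the annotation at hand, so the 62 genes are described by their levels and not by function, and markers of cell types could not be checked. Each library is a mixture of the cells of many embryos or of a culture, so fewer cells of a type and less RNA per cell cannot be told apart.

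The whole set moved through development in the same order in both methods. The median of the 62 genes in a library, on the log2(normalized count + 1) scale, averaged 1.39 ± 0.21 in oocytes (SD, n = 4). In scNT libraries the 2-cell embryos averaged 1.41 ± 0.29, the 8-cell embryos 1.96 ± 0.56, the morulae 7.63 ± 0.34, the blastocysts 8.52 ± 0.34 and the blastocyst-derived cells 6.03 ± 0.20 (SD, n = 4, and 3 for morulae). In IVF libraries the same stages averaged 1.42 ± 0.68, 2.99 ± 0.71, 7.28 ± 0.32, 8.52 ± 0.22 and 5.89 ± 0.25 (SD, n = 4 each). Fibroblasts averaged 2.68 ± 0.33. The scNT and IVF libraries overlapped at every stage. As a share of all normalized counts the 62 genes held 0.00206%, 0.00493%, 0.224%, 0.384% and 0.347% in scNT 2-cell embryos, 8-cell embryos, morulae, blastocysts and derived cells, against 0.00428%, 0.00801%, 0.182%, 0.402% and 0.325% at the same IVF stages. They held 0.00336% in oocytes and 0.0285% in fibroblasts.

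**Figure D1:**
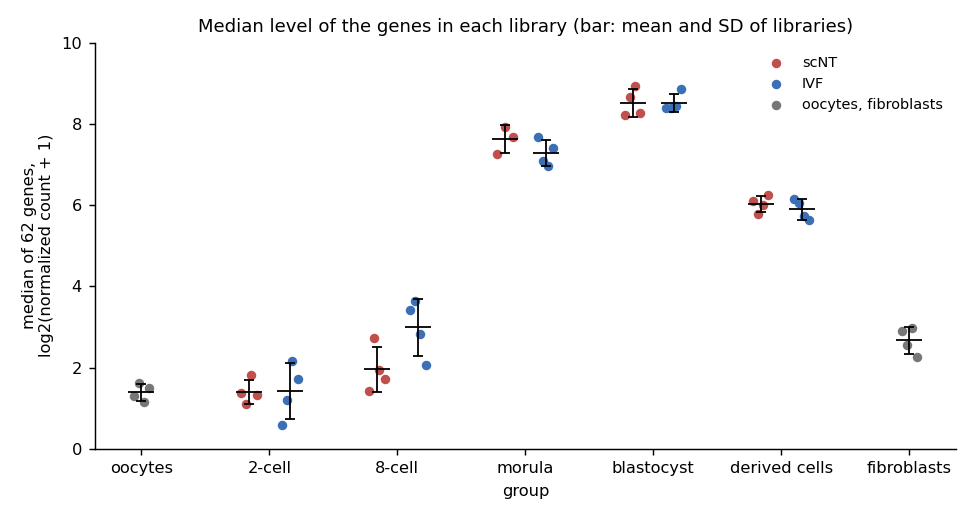
Median of the 62 genes in each library, as log2(normalized count + 1), by group; each point is a library and the black bars give the mean and SD. Morulae and blastocysts of both methods lie above 6, derived cells near 6, and oocytes, 2-cell and 8-cell embryos and fibroblasts below 4.

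The counts of the set were shared unequally. The 5 leading genes held 57.5% of them in scNT derived cells, 54.3% in IVF derived cells and 61.3% in fibroblasts. In blastocysts the 5 leading genes held 36.1% (scNT) and 33.8% (IVF). Replicate libraries spread more in these genes than in all genes with a mean of at least 100. The genes were not matched in level above that limit. In scNT morulae the spread also includes the departures of replicate 4, given below. Among the 54 genes with a mean of at least 100 in scNT morulae the median coefficient of variation was 51.3%, against 17.8% over the 8083 genes that reached that mean. It was 27.7% against 13.4% in IVF morulae, 22.5% against 12.4% in scNT blastocysts and 24.9% against 14.6% in IVF blastocysts.

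**Figure D2:**
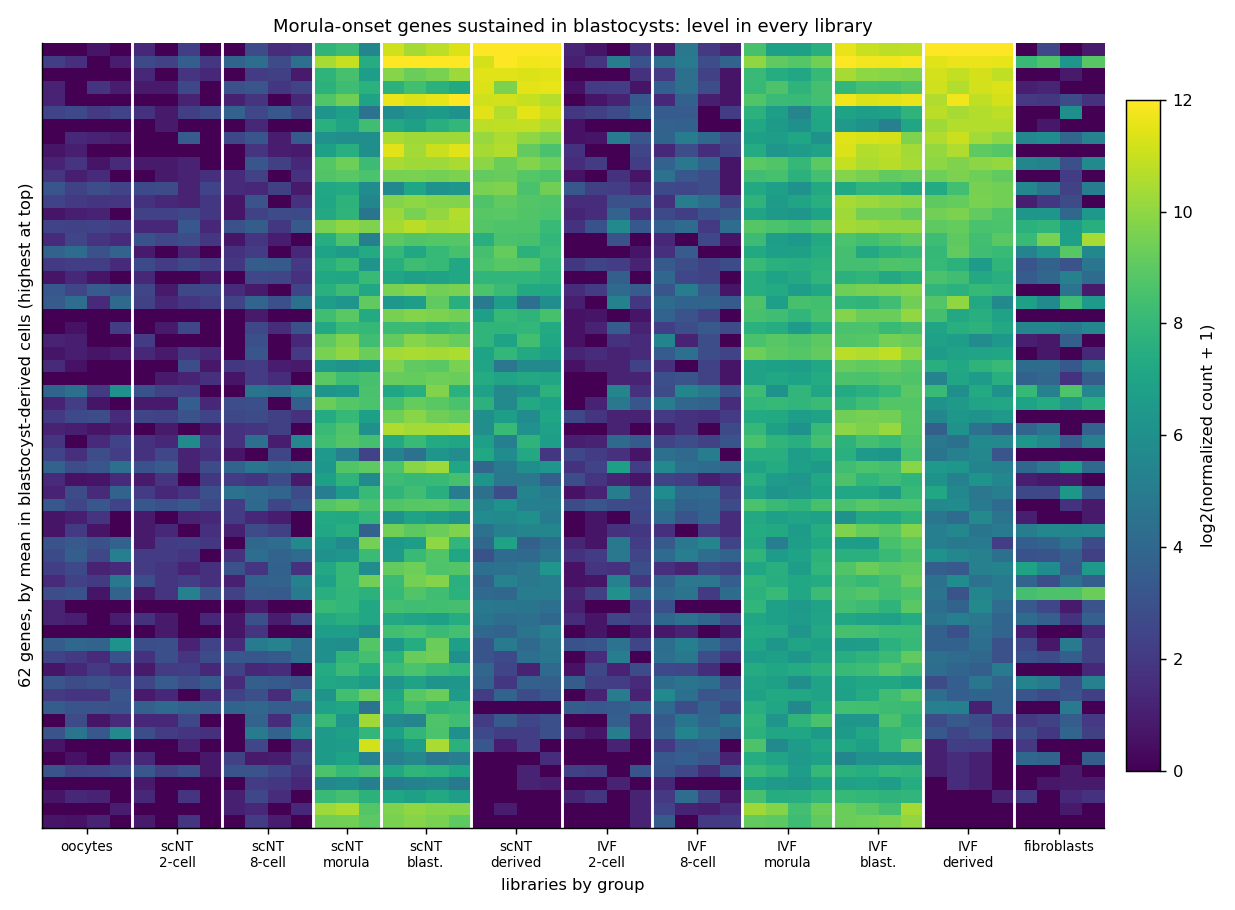
Level of each of the 62 genes (rows) in each of the 47 libraries (columns, grouped), as log2(normalized count + 1), with rows ordered by their mean in blastocyst-derived cells. The rows are dark in oocytes, 2-cell and 8-cell embryos and bright in morulae and blastocysts, and only the upper rows stay bright in derived cells.

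The onset between the 8-cell embryo and the morula was also seen in scNT embryos, whose libraries took no part in choosing the genes. All 62 genes were higher in scNT morulae than in scNT 8-cell embryos by their mean log2 value, with a median log2 difference of 5.62 (range 2.45 to 8.90), against a median of -0.17 over all genes tested. In 61 of the 62 every scNT morula library lay above every scNT 8-cell library, a description given without the matching share over all genes. With limma and Benjamini-Hochberg adjustment 61 genes rose and 0 fell, out of 61 that passed the filter on low values. Over all 13702 genes tested 31.2% rose and 37.7% fell. The filter could be passed through the morula libraries alone, so this count describes the 61 genes and adds no separate evidence. Leaving out any 1 library, scNT morula replicate 4 included, gave 58 to 60 higher calls. edgeR also gave 0 lower calls, and no gene was lower with an unadjusted p under 0.05.

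The gene with the greatest onset in scNT embryos was ENSBTAG00000004950. It had 1206.0, 1457.4 and 438.2 normalized counts in scNT morulae 2, 3 and 4, against 1.1, 1.6, 0.0 and 1.5 in the scNT 8-cell libraries. The groups lay far apart, although replicate 4 had the lowest morula value. The log2 difference was 8.90 ± 0.54 (SE; limma, Benjamini-Hochberg adjusted p = 3.15e-05). ENSBTAG00000009904 had 683.9, 703.8 and 498.6 in scNT morulae and 0.0, 3.3, 0.9 and 0.0 in scNT 8-cell embryos. Its log2 difference was 8.52 ± 0.56 (SE; limma, Benjamini-Hochberg adjusted p = 3.55e-05), and every morula library again lay above every 8-cell library.

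The single gene that did not pass the filter was ENSBTAG00000038497, named here after its values were seen. It had 85.6, 36.1 and 4.5 normalized counts in scNT morulae against 0.6, 0.0, 4.7 and 0.0 in scNT 8-cell embryos. Replicate 4 fell within the 8-cell range, and the other 2 morula libraries lay above it. In IVF morulae the same gene had 186.7, 182.8, 104.8 and 132.9.

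Before the morula the genes were low in scNT embryos too. The median was at most 20 in all 62 genes at the scNT 2-cell stage and in 59 at the 8-cell stage. The 3 exceptions, picked out after their values were seen, were ENSBTAG00000042408, ENSBTAG00000042536 and ENSBTAG00000042579, with scNT 8-cell medians of 21.2, 20.9 and 24.1 against IVF 8-cell medians of 16.8, 17.1 and 18.4. By their medians all 3 were thus close to the limit in both methods. Their single scNT 8-cell libraries ran from 0 to 39.2, 0 to 49.8 and 1.7 to 38.6, in the same order. All 3 belong to the subset of 13 genes described below. By mean log2 value 49 of the 62 genes were lower in scNT than in IVF 8-cell embryos, with a median difference of -0.66, and 37 lay within 1 log2 unit. The library medians at this stage ran from 1.43 to 2.74 in scNT embryos and from 2.07 to 3.65 in IVF embryos, so the groups overlapped, and these IVF libraries were used by the rule, so the difference was not tested.

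Most scNT medians also met the later thresholds. In scNT morulae 50 of the 62 genes had a median of at least 100, and the lowest was 36.1. The scNT blastocyst median was at least 0.5 of the scNT morula median in 57. All thresholds together were met by 45 of the 62 in scNT embryos. The step from 8-cell embryo to morula had a median log2 difference of 5.62 in scNT embryos and 4.85 in IVF embryos, and it was greater in scNT embryos for 48 genes. Across the 62 genes the scNT and IVF steps correlated with r = 0.72 and rho = 0.67. This correlation describes the 62 genes, which share libraries and are not independent, and the difference between the methods' steps was not tested.

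**Figure D3:**
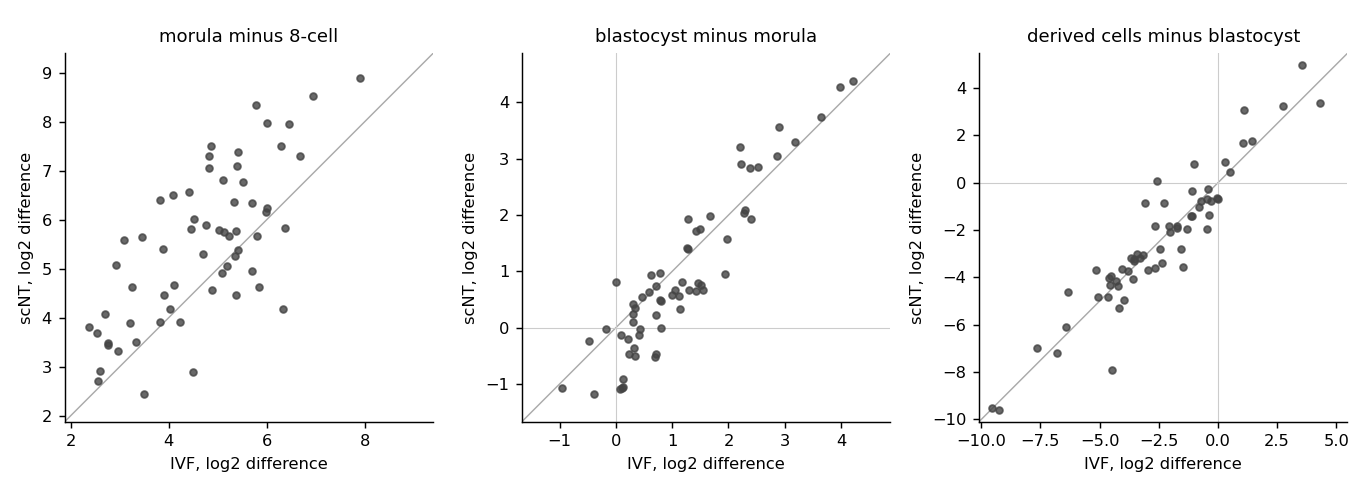
Mean log2 difference of each of the 62 genes at 3 steps, scNT on the vertical and IVF on the horizontal axis, with the line of equality. Most points lie above the line for the morula minus 8-cell step, and the points follow the line for the blastocyst minus morula and the derived cells minus blastocyst steps.

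From morula to blastocyst the set rose on balance, but with genes moving both ways. In scNT embryos 25 of the 62 genes rose and 4 fell (limma, Benjamini-Hochberg adjusted p under 0.05), against 21.6% higher and 26.1% lower over all 13236 genes tested. The 25 had a median log2 difference of 1.98 and the 4 of -1.06. The median over all 62 was 0.66, against -0.09 over all genes tested. The rule kept only genes with an IVF blastocyst median of at least 0.5 of the morula median. The scNT step followed the IVF step across the genes (r = 0.93). The scNT counts therefore describe the 62 genes and add no separate evidence. With library totals set equal the calls were 17 higher and 8 lower and the median of the genes was 0.26, while the median of all genes moved to -0.48. Without scNT morula replicate 4 there were 7 lower calls. Over all genes the calls were 1493 higher and 5578 lower with equal totals, and 2823 and 3501 without that replicate, against 2855 and 3460 as reported.

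By medians 27 genes were at least 2-fold higher in scNT blastocysts than in scNT morulae and 8 at least 5-fold higher. A further 18 had a ratio from 1 to 2, 12 a ratio from 0.5 to 1, and 5 a ratio under 0.5. The ratio had a median of 1.72 and ran from 0.388 to 21.8 in scNT embryos, and had a median of 1.84 and ran from 0.569 to 22.8 in IVF embryos. Of the genes at least 2-fold higher in blastocysts, 27 in scNT and 28 in IVF, 20 were shared, and of those at least 5-fold higher, 8 and 9, 6 were shared. The scNT and IVF steps correlated across the 62 genes with r = 0.93 and rho = 0.89, as a description only, and had the same direction in 49.

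ENSBTAG00000045727 had 1430.2, 1240.4, 1258.3 and 1268.1 normalized counts in scNT blastocysts, against 65.8, 57.3 and 62.0 in scNT morulae. Blastocyst replicate 1 was the highest and the other 3 lay close together, and the group means were 1299 ± 88.1 and 61.7 ± 4.26 (SD). The log2 difference was 4.37 ± 0.13 (SE; limma, Benjamini-Hochberg adjusted p = 6.43e-07). ENSBTAG00000009145 had 2823.9, 1272.9, 2113.5 and 2730.7 in scNT blastocysts and 111.0, 189.3 and 62.0 in scNT morulae. Its replicates spread more widely, but the groups did not overlap, and the log2 difference was 4.27 ± 0.42 (SE; limma, Benjamini-Hochberg adjusted p = 0.00031).

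Of the 4 genes that fell, ENSBTAG00000030482 had 135.9, 113.0, 156.3 and 102.9 in scNT blastocysts, against 267.2, 341.3 and 210.0 in scNT morulae, a log2 difference of -1.09 ± 0.22 (SE; limma, Benjamini-Hochberg adjusted p = 0.00378). ENSBTAG00000014921 had 149.1, 281.8, 160.9 and 134.7 in scNT blastocysts, against 325.5, 439.7 and 349.1 in scNT morulae. In both genes every blastocyst library lay below every morula library, and blastocyst replicate 2 of ENSBTAG00000014921 came nearest to the morulae. The log2 difference of ENSBTAG00000014921 was -1.08 ± 0.26 (SE; limma, Benjamini-Hochberg adjusted p = 0.00777).

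Over the morula, blastocyst and derived-cell stages the highest median fell in the blastocyst for most genes. In scNT samples 12 genes had it in morulae, 40 in blastocysts and 10 in derived cells, and in IVF samples 6, 47 and 9. The stage was the same in both methods for 50 genes, of which 4 had it in morulae, 38 in blastocysts and 8 in derived cells.

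A further 5 genes met the same onset rule in IVF embryos but had an IVF blastocyst median under 0.5 of the morula median, so that 67 genes in all had this onset. In scNT embryos 4 of those 5 also had a blastocyst median under 0.5 of the morula median, and the ratio over all 5 ran from 0.0333 to 0.728. Their medians ran from 11.2 to 291 in scNT blastocysts and from 58.3 to 522 in scNT morulae, and from 0 to 23.2 in scNT derived cells. With 5 genes no difference from the 62 was tested.

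At the stage of onset 55 of the 62 genes lay within 1 log2 unit between scNT and IVF morulae. The IVF morulae and blastocysts chose the genes, so scNT and IVF embryos are set side by side as a description, with no p-value for a gene, and nothing is read from the counts of calls. The median log2 difference was 0.12 (range -2.51 to 1.47). It was -0.03 with library totals set equal, where the median over all genes was -0.10, against 0.05 as reported. The scNT libraries lay wholly above the IVF libraries in 7 genes and wholly below in 4. The matching share over all genes is not given, so nothing is read from these counts. In the fit over all 13590 genes (limma, Benjamini-Hochberg) 3 of the 62 were called higher in scNT and 1 lower, against 7.37% higher and 11.3% lower over all genes. Those counts changed with single libraries. Without IVF morula replicate 2 the members' counts were 1 and 0, and those of all genes fell to 32 and 82, against 1002 and 1540 as reported. Without scNT morula replicate 4 the members' counts were 9 and 4, and those of all genes 1028 and 1638. Without scNT replicate 2 the members' counts were 6 and 2, and without IVF replicate 1 or 4 there were 0 lower calls. With library totals set equal they were 3 and 2, beside 416 and 1953 over all genes.

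ENSBTAG00000013569 had 489.2, 312.7 and 368.7 normalized counts in scNT morulae and 120.3, 147.1, 121.9 and 167.2 in IVF morulae, with no overlap. The log2 difference was 1.47 ± 0.21 (SE). ENSBTAG00000031941 had 770.4, 1026.4 and 826.5 in scNT morulae and 458.2, 386.4, 330.3 and 448.4 in IVF morulae, also without overlap. Its log2 difference was 1.11 ± 0.17 (SE), and it was no longer called without IVF replicate 2. ENSBTAG00000033835 was lower, with 46.1, 56.1 and 34.8 in scNT morulae and 115.7, 87.7, 80.2 and 122.6 in IVF morulae. Its log2 difference was -1.14 ± 0.26 (SE), and the groups did not overlap. It was no longer called without IVF replicate 1, 2 or 4.

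In blastocysts 58 genes lay within 1 log2 unit between scNT and IVF, and the median log2 difference was -0.04. The scNT libraries lay wholly above the IVF libraries in 3 genes and wholly below in 7, again without the share over all genes and as a description only. In the fit over all 12607 genes (limma, Benjamini-Hochberg) 2 of the 62 were called higher in scNT and 4 lower, against 2.53% higher and 3.42% lower over all genes, again as a description. Levels in the methods correlated across the genes with r = 0.94 in blastocysts and r = 0.79 in morulae, as a description over 62 genes. With library totals set equal 1 was called higher and 10 lower, beside 169 and 914 over all genes, which were 319 and 431 as reported, and the median over all genes was -0.15, against -0.01 as reported. Without IVF blastocyst replicate 2 the members' counts were 1 and 2, and those of all genes 134 and 182. Without IVF replicate 4 there were 4 higher calls, without scNT replicate 2 there were 7 lower calls, and without scNT replicate 1, 3 or 4 there was 1 higher call.

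Among the genes named by the size of their difference, ENSBTAG00000033835 was lower in scNT at both stages. It had 31.5, 37.2, 44.4 and 28.0 normalized counts in scNT blastocysts and 117.2, 122.5, 100.3 and 172.7 in IVF blastocysts. The highest scNT library lay well below the lowest IVF library, and the log2 difference was -1.82 ± 0.23 (SE). ENSBTAG00000038497, described above, was also lower in scNT at both stages without overlap. Its highest scNT values were 85.6 in morulae and 76.6 in blastocysts, against lowest IVF values of 105 and 81.2. ENSBTAG00000013569 was higher in scNT at both stages, with 594.9, 580.7, 654.4 and 606.1 in scNT blastocysts and 399.9, 375.5, 441.7 and 412.9 in IVF blastocysts. The difference was 0.58 ± 0.11 log2 units (SE), with no overlap between the groups.

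The other genes named in blastocysts were ENSBTAG00000021377 and ENSBTAG00000020261. ENSBTAG00000021377 had 5059.4, 4645.7, 5617.1 and 7556.7 in scNT blastocysts and 4427.0, 3488.0, 3442.2 and 3755.3 in IVF blastocysts, a log2 difference of 0.58 ± 0.15 (SE). The lowest scNT library lay just above the highest IVF library. ENSBTAG00000021377 was no longer called without IVF replicate 2, 3 or 4 or without scNT replicate 1, 3 or 4. ENSBTAG00000020261 had 48.1, 130.1, 67.4 and 75.0 in scNT blastocysts and 156.2, 232.7, 227.2 and 159.5 in IVF blastocysts. Its log2 difference was -1.33 ± 0.27 (SE), and scNT replicate 2 came nearest to the IVF libraries. It was no longer called without IVF replicate 2 or 3.

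The spread in scNT morulae was not shared evenly. Replicate 4 held the highest of the 3 values for 18 genes and the lowest for 37. It was at least 2-fold above the mean log2 value of replicates 2 and 3 for 13 genes, at least 2-fold below it for 21, and in between for 28. Over the 9774 genes with an scNT morula mean of at least 50, a level reached by 60 of the 62, 5.27% lay at least 2-fold above and 9.30% at least 2-fold below. The subsets of 13 and 21 genes were formed after these values were seen, so their levels elsewhere are described and not tested.

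The 13 genes also stood apart together in other groups. Their library median was 6.29, 6.48 and 9.02 in scNT morulae 2, 3 and 4, and 6.79, 7.89, 9.28 and 7.12 in scNT blastocysts 1 to 4. In IVF blastocysts 1 to 4 it was 7.19, 7.38, 8.19 and 8.94. In scNT blastocyst replicate 3 it was high, and 12 of the 13 genes had their highest value of the group there, as did 6 of the other 49 genes and 19.4% of the 12363 genes with a group mean of at least 10. In IVF blastocyst replicate 4 the counts were 12 of the 13 and 16 of the 49, against 33.9% of all such genes. In IVF 2-cell embryos their library median was 0.58, 0.68, 5.11 and 1.96, and all 13 had their highest value in replicate 3, as did 18 of the other 49 genes and 34.4% of the 12770 genes with a group mean of at least 10. In that library 11 of the 13 and 5 of the 49 exceeded 20 normalized counts. In fibroblasts 11 of the 13 and 14 of the 49 had their highest value in replicate 3, against 37.1% of 12347 genes. The library median of the 13 was 2.70, 2.85, 2.04 and 4.15 in oocytes 1 to 4. It was 1.43, 4.05, 3.83 and 4.42 in scNT 8-cell embryos 1 to 4.

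The 21 genes low in scNT morula replicate 4 varied less in the blastocysts. Their library median was 7.26, 8.01 and 5.79 in scNT morulae 2, 3 and 4, and lay between 9.35 and 9.53 in the 4 scNT blastocyst libraries and between 8.92 and 9.30 in the 4 IVF blastocyst libraries. The subsets also differed before and after the morula. The median of the 13 genes averaged 3.43 in scNT and 4.11 in IVF 8-cell embryos, and that of the 21 genes 1.62 and 2.29. In derived cells the 13 averaged 4.07 (scNT) and 4.39 (IVF), and the 21 averaged 8.21 and 7.78.

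**Figure D4:**
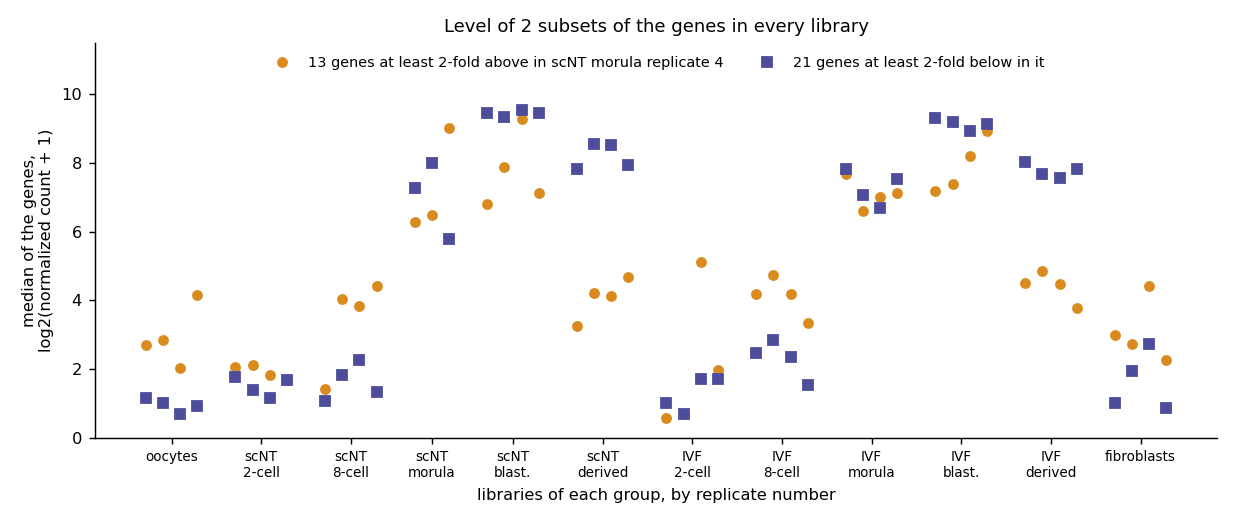
Library medians, as log2(normalized count + 1), of the 13 genes at least 2-fold above (circles) and the 21 genes at least 2-fold below (squares) in scNT morula replicate 4, for every library in order of replicate number. The circles stand high in scNT morula replicate 4, scNT blastocyst replicate 3, IVF blastocyst replicate 4 and IVF 2-cell replicate 3, while the squares are level in the blastocysts of both methods.

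ENSBTAG00000043319, singled out for the largest rise in scNT morula replicate 4, had 93.1, 97.2 and 2355.7 normalized counts in scNT morulae 2, 3 and 4. It had 56.3, 100.7, 1410.0 and 205.8 in scNT blastocysts 1 to 4, and 141.4, 112.3, 239.9 and 563.0 in IVF blastocysts. In each group 1 library stood above the rest. In IVF morulae it had 394.9, 52.0, 99.4 and 143.2, and in derived cells at most 8.6 (scNT) and 3.7 (IVF).

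In blastocyst-derived cells most of the genes were lower than in blastocysts. In scNT 48 of the 62 genes fell and 8 rose (limma, Benjamini-Hochberg), against 34.1% lower and 32.9% higher over all 12786 genes tested. The IVF blastocysts chose the genes, so the IVF values are a description: 47 of the 62 were called lower in IVF derived cells and 5 higher, against 34.3% lower and 32.6% higher over 13099 genes, and nothing is read from that count. The median log2 difference of the 62 was -2.79 in scNT and -2.51 in IVF, and the median of all genes tested was -0.03 and -0.04. With library totals set equal the scNT median was -2.51, while that of all genes moved to 0.26. The scNT blastocysts took no part in choosing the genes. Their levels followed those of the IVF blastocysts, however, with r = 0.94 across the genes. A gene could also pass the filter through blastocysts alone. The scNT count therefore describes the 62 genes and adds no separate evidence. The scNT and IVF differences correlated across the 62 genes with r = 0.94 and rho = 0.93, a description only, and had the same direction in 60.

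By their level in IVF derived cells the genes fell into 3 classes. In 17 the IVF derived-cell median was at most 20, and 14 of them were in the same class in scNT, where the median log2 difference from blastocysts was -4.81. In 26 it was above 20 but under 0.5 of the blastocyst median, and 18 of them were so in scNT, with a median of -2.90. In 19 it was at least 0.5 of the blastocyst median, and 15 of them were so in scNT, with a median of -0.28. In all 47 genes kept their class between methods. Derived-cell medians exceeded blastocyst medians in 10 genes in scNT and 10 in IVF, 8 of them the same genes. At onset the median gene of the 3 classes, in the order given, had 227, 181 and 178 normalized counts in scNT morulae and 138, 159 and 162 in IVF morulae.

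The deepest losses were those of ENSBTAG00000009904 and ENSBTAG00000004950, the genes with the greatest onset in scNT embryos. ENSBTAG00000009904 had 0 in all 8 derived-cell libraries, against 772.3, 896.6, 763.2 and 524.8 normalized counts in scNT blastocysts and 634.3, 649.0, 759.0 and 1051.0 in IVF blastocysts. With 3 reads per library as the floor it was at least 252-fold lower in scNT derived cells and at least 242-fold lower in IVF derived cells. In scNT the adjusted p was 5.76e-10 (limma, Benjamini-Hochberg). ENSBTAG00000004950 had 0.0, 0.9, 0.0 and 0.0 in scNT derived cells, a single read in all, against 826.9, 1029.8, 913.4 and 870.4 in scNT blastocysts. The blastocyst level was 3776 times that of derived cells with a 95% counting interval of 677 to 149212. In IVF derived cells ENSBTAG00000004950 had 0 in 4 libraries, against 628.7, 487.8, 346.5 and 1338.1 in IVF blastocysts, and was at least 219-fold lower. Intervals and floors cover counting error only.

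ENSBTAG00000039046 and ENSBTAG00000000936 went the other way. ENSBTAG00000039046 had 2808.1, 1580.2, 2912.1 and 2190.7 normalized counts in scNT derived cells and 56.3, 75.9, 93.5 and 68.6 in scNT blastocysts, a log2 difference of 4.98 ± 0.21 (SE; limma, Benjamini-Hochberg adjusted p = 7.23e-09). It had 1712.5, 1395.8, 1568.2 and 1810.8 in IVF derived cells and 124.6, 102.0, 116.8 and 221.5 in IVF blastocysts, a difference of 3.57 ± 0.21. Every derived-cell library lay above every blastocyst library in both methods. ENSBTAG00000000936 had 1781.6, 1826.4, 1937.1 and 1536.4 in scNT derived cells and 150.8, 113.0, 188.5 and 247.8 in scNT blastocysts. It had 1243.3, 1587.9, 1589.4 and 1583.8 in IVF derived cells and 87.4, 69.4, 36.8 and 133.2 in IVF blastocysts. Its log2 differences were 3.38 ± 0.21 in scNT (SE; limma, Benjamini-Hochberg adjusted p = 1.10e-07) and 4.32 ± 0.32 in IVF (SE).

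The 2 genes whose mean difference had opposite signs in the methods, picked out after their values were seen, were ENSBTAG00000018011 and ENSBTAG00000038497. ENSBTAG00000018011 had 384.0, 469.5, 434.6 and 237.5 in scNT derived cells and 182.3, 305.1, 259.0 and 141.0 in scNT blastocysts. In IVF it had 262.2, 206.0, 96.2 and 226.9 in derived cells and 338.5, 338.8, 415.0 and 390.4 in blastocysts. The groups overlapped in scNT and did not overlap in IVF, with mean log2 differences of 0.80 and -0.99. ENSBTAG00000038497 had 147.8, 57.0, 148.0 and 2.9 in scNT derived cells and 39.8, 21.7, 76.6 and 58.5 in scNT blastocysts, a difference of 0.06, and 23.6, 36.2, 46.5 and 8.1 in IVF derived cells and 197.2, 87.8, 81.2 and 337.8 in IVF blastocysts, a difference of -2.57. scNT derived-cell replicate 4 stood far below the other 3 in the second gene. The difference between the methods was not tested for either gene.

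No gene of the set passed the threshold between scNT and IVF derived cells. Of the 52 genes that passed the filter 0 were higher and 0 lower in scNT (limma, Benjamini-Hochberg), against 0.638% higher and 0.702% lower over all 12390 genes tested. There were 13 genes with an unadjusted p under 0.05, beside 1651 of the 12390 genes tested. edgeR made 0 calls in either direction, beside 68 higher and 81 lower over all genes. DESeq2 made 3 higher and 2 lower, beside 219 and 236 over all genes. Calls were rare over all genes too, so the 0 calls are not read as a trait of the set. Leaving out IVF derived-cell replicate 2 gave 1 higher call, and leaving out IVF replicate 3 or scNT replicate 1 gave 1 lower call. Levels correlated across the 62 genes with r = 0.96, and 53 genes lay within 1 log2 unit.

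**Figure D5:**
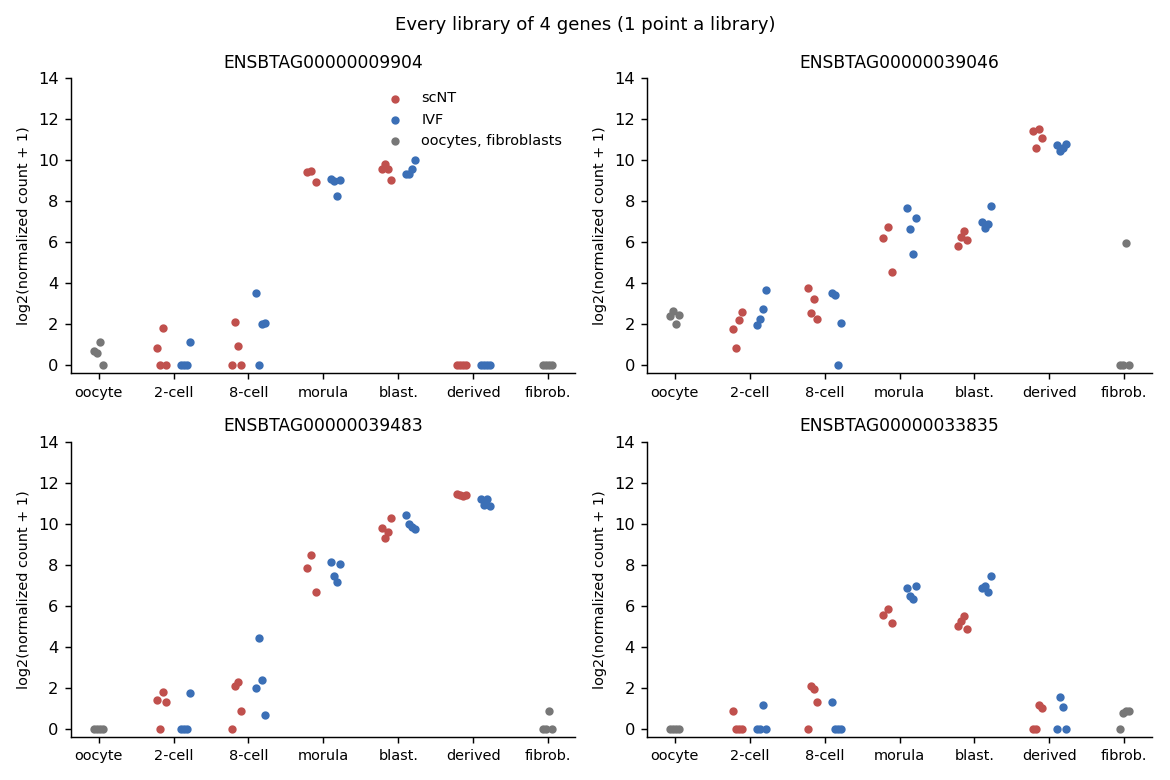
Level of 4 genes in every library, as log2(normalized count + 1), with scNT in red left of IVF in blue at each stage and oocytes and fibroblasts in grey. ENSBTAG00000009904 is at 0 in derived cells and fibroblasts, ENSBTAG00000039046 and ENSBTAG00000039483 are highest in derived cells, and ENSBTAG00000033835 is lower in scNT than in IVF morulae and blastocysts.

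Fibroblasts, the somatic cell type from which the scNT nuclei came, expressed few of the 62 genes at the level of blastocysts. The fibroblast median was at most 20 in 44 genes, 0 in 14 of those, and at least 100 in 6. In 13 genes the medians of fibroblasts and of derived cells of both methods were all at most 20. In 15 genes fibroblasts were at most 20 and both kinds of derived cells at least 100. The fibroblast median exceeded both blastocyst medians in 2 genes, ENSBTAG00000016045 and ENSBTAG00000018016, picked out for that. ENSBTAG00000018016 had a median of 515 in fibroblasts, against 459 in scNT and 397 in IVF blastocysts.

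Of the 48 genes that passed the filter 31 were higher and 1 lower in scNT derived cells than in fibroblasts (limma, Benjamini-Hochberg), against 23.8% higher and 22.3% lower over all 12583 genes tested. Of 51 genes 32 were higher and 1 lower in IVF derived cells than in fibroblasts, against 23.6% higher and 21.9% lower over all 12728 genes tested. The median log2 difference over the 62 was 2.02 in scNT and 2.21 in IVF derived cells, and that of all genes tested was 0.03 and 0.04. A gene could pass the filter through derived cells alone, and both comparisons use the same fibroblast libraries. Without fibroblast replicate 3, 37 were higher and 5 lower in scNT derived cells and 41 higher and 4 lower in IVF derived cells. The counts over all genes rose as well, from 2989 and 2811 to 3933 and 3851 in scNT derived cells. In IVF derived cells they rose from 3002 and 2782 to 4077 and 3851. With library totals set equal the median of all genes moved to 0.22 in both comparisons.

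ENSBTAG00000026278 had 7038.8, 7299.3, 6745.2 and 5306.4 normalized counts in scNT derived cells and 5304.0, 5944.3, 6321.5 and 6029.7 in IVF derived cells, against 0.0, 4.9, 0.0 and 0.8 in fibroblasts. ENSBTAG00000039483 had 2833.1, 2723.1, 2650.1 and 2696.1 in scNT derived cells and 2339.2, 1930.4, 2382.5 and 1862.9 in IVF derived cells, against a single read in 4 fibroblast libraries. The ratio of ENSBTAG00000039483 to fibroblasts was 13628 (95% counting interval 2445 to 538314) in scNT and 10597 (1901 to 418604) in IVF derived cells. Both genes were called in both comparisons, with an adjusted p of at most 1.09e-06 (limma, Benjamini-Hochberg).

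ENSBTAG00000016045 was the only gene lower in derived cells than in fibroblasts in both comparisons as reported. It had 16.3, 14.7, 31.7 and 32.4 normalized counts in scNT derived cells and 22.5, 7.4, 44.4 and 31.3 in IVF derived cells, against 348.3, 395.0, 400.2 and 624.9 in fibroblasts. The highest derived-cell library lay far under the lowest fibroblast library. The log2 difference was -4.21 ± 0.32 in scNT and -4.22 ± 0.49 in IVF derived cells (SE; limma, Benjamini-Hochberg adjusted p = 1.40e-05 and 0.000198). Its blastocyst medians were 291 in scNT and 379 in IVF.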

How the data were processed

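The table deposited by the authors gives a signal, the normalized count, for 20526 genes in 47 libraries. The tools listed in the submitters' processing notes are STAR, DESeq2, FastQC and MultiQC, and the build is UMD3.1, with no versions or order. Per the labels' protocols, the fraction of long RNA was amplified by repeated PCR, and reads are not taken as independent molecules. In each library the values were multiples of 1 step, which gave whole reads in 100% of values (tolerance 0.06) against at most 25.1% by chance. No pair of replicates differed by as little as sampling noise (lowest chi-square per degree of freedom 6.75 of 69 pairs). Genes that reached 10 in at least n libraries, n being the size of the smaller group, entered limma 3.58.1 (trend, robust) in R 4.3.3 on log2(value + 1), two-sided, over the 2 groups compared, without a replicate block. Log2 differences on that scale understate changes of low genes. Calls needed an adjusted p under 0.05 after Benjamini-Hochberg adjustment over all genes tested. Alternatives were a pseudocount of 5, no filter, equal library totals, median-of-ratios scaling, edgeR 4.0.16 and DESeq2 1.42.0 on the recovered reads, a replicate block and leaving out each library. The fits were tested on simulated data. Comparisons that use the IVF morulae or IVF blastocysts, which chose the genes, are given as descriptions. The 62 genes, the comparisons and the lists were chosen with earlier results of these data known. The 12 lists of named genes, the cell type markers and the sequence motifs could not be used, since 0 identifiers matched the annotation (ARS-UCD2.0). Genes were named by the largest log2 difference among called genes whose higher group had a mean of 50 or more and whose libraries did not overlap, at most 2 identifiers per direction, and the condition of a gene symbol could not be applied.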

Additional observations from a re-analysis of the deposited data

Results flagged for a closer look

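A single sample far from the others of its group was found in 6 of the 53 groups of values tested. A chance rate of about 1 in 20 holds only for independent, continuous values. These groups share genes and libraries and include low counts near 0, so no excess is read from the number. The library median of the 62 genes on the log2 scale was 8.85 in IVF blastocyst replicate 4, above the other 3 (8.38 to 8.44), and it is the library in which 12 of the 13 genes described above were highest. ENSBTAG00000045727 had 1430 normalized counts in scNT blastocyst replicate 1, above 1240.4 to 1268.1 in the others. ENSBTAG00000000936 had 1243 in IVF derived-cell replicate 1, below 1583.8 to 1589.4 in the others. The other 3 were low counts in groups otherwise at or near 0: ENSBTAG00000004950 had 0.9 in scNT derived-cell replicate 2, ENSBTAG00000026278 had 4.9 in fibroblast replicate 2, and ENSBTAG00000039483 had 0.8 in fibroblast replicate 3.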

How the results depend on the processing

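Among the genes named by the size of their difference, no direction was reversed under any alternative run. Genes picked out after their values were seen were not covered by that check. The median log2 difference of scNT against IVF morulae was -0.03 with equal library totals, against 0.12 as reported, and leaving out 1 library gave -0.01 to 0.36. For blastocysts leaving out 1 library gave -0.19 to 0.09, so neither median had a stable sign. With a pseudocount of 5 the median log2 difference was 4.38 for scNT morulae against 8-cell embryos, 1.49 for scNT and 1.74 for IVF derived cells against fibroblasts. With equal library totals it was 0.26 for scNT blastocysts against morulae (8 lower calls) and -2.51 for scNT derived cells against blastocysts, and the calls were 2 lower for scNT against IVF morulae and 1 higher and 10 lower for blastocysts. edgeR gave 1 higher call for scNT against IVF blastocysts. DESeq2 gave 5 higher and 3 lower calls in morulae, 4 and 7 in blastocysts, 3 and 2 in derived cells, and 2 lower for scNT derived cells against fibroblasts. Over all genes it gave 1332 higher and 1913 lower in morulae, 558 and 563 in blastocysts, and 219 and 236 in derived cells. Without a filter there was 1 lower call between derived cells of the methods and 2 lower for scNT derived cells against fibroblasts. The replicate numbers were not taken to pair the libraries, since no comparison had every pair's correlation over 0.1 (range -0.154 to 0.329). Every library correlated best with its own number only for scNT derived cells and fibroblasts (4 of 4), a hint from the data and not the design. With the replicate block there were 15 higher and 1 lower calls for scNT blastocysts against morulae (1708 and 2068 over all genes, against 2855 and 3460 without it). ENSBTAG00000014921 was not called lower with the block (limma, Benjamini-Hochberg adjusted p = 0.0536). For scNT against IVF morulae there were 0 and 0 (1 and 1 over all genes, against 1002 and 1540 without it). For scNT against IVF derived cells there were 2 and 1 (149 and 153 over all genes, against 79 and 87 without it).

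Leaving out 1 library gave 4 to 7 lower calls for scNT blastocysts against morulae, 1 to 9 higher and 0 to 4 lower for scNT against IVF morulae, 1 to 4 higher and 2 to 7 lower for blastocysts, and 0 to 1 higher and 0 to 1 lower for derived cells. It gave 1 to 5 lower calls for scNT and 1 to 4 for IVF derived cells against fibroblasts, with medians of 2.00 to 2.30 and 2.11 to 2.75, and a median of -2.82 to -2.46 for scNT derived cells against blastocysts. Depth limits the genes at or near 0, where a floor of 3 reads per library stands for the value.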
